A study of Homo sapiens with 34 samples.

Results

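The regions described here are places where RNA polymerase II (Pol II) was listed as bound in uninduced DLD1 cells and was not listed at all after induction of a dominant negative TCF7L2. They are the regions of the uninduced Pol II peak list that were under 5000 bp wide and shared not 1 bp with any region of the induced Pol II list. There were 17409 of them among the 57247 uninduced Pol II regions, or 30.4%. They covered 7.89 Mb of the 70.9 Mb under all uninduced Pol II regions, or 11.1%. They were chosen by presence and absence in the 2 Pol II lists, so their number, strength and distance to induced regions are descriptions. The gene table and the H3K27ac lists were not used to choose them.

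DLD1 is a colorectal adenocarcinoma cell line, and the DNTCF derivative used here carries a tetracycline-inducible dominant negative TCF7L2. Induced cells had 1 µg/mL doxycycline for 24 h, and uninduced cells carried the same transgene without doxycycline. Chromatin was precipitated with an antibody to Pol II or to H3K27ac (2 samples each per condition), and each condition also had 1 input. Both samples of a group share 1 peak list by the labels. Replicate spread is therefore unknown, and every comparison is given without a p-value, with Wilson 95% intervals that cover counting error alone. Parental cells given doxycycline were not analysed here, so an action of doxycycline itself and one of the transgene cannot be told apart. Another 24 samples of the series, RNA-seq of engineered lines, were not analysed here.

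Pol II transcribes all protein-coding genes. It gathers just past the start of active genes, spreads thinly along the body during elongation, and is found again past the 3′ end, where transcription terminates. It is also found at active enhancers, which it transcribes into short unstable RNAs. H3K27ac is a histone mark laid down at active promoters and enhancers. In colorectal cells TCF7L2 recruits β-catenin to Wnt target genes, and a form that cannot bind β-catenin blocks that step.

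Colon epithelium genes, among them CDX2, CDH1 and VIL1, had a region within 1 kb of the gene in all 4 lists in 10 of 10 cases. Of 20 immune, stromal and endothelial genes, 12 had one in each Pol II list, 13 in the induced H3K27ac list and 11 in the uninduced one, and of 20 liver, muscle and neuron genes 8 had one in each list. Without the 1 kb, an uninduced Pol II region overlapped 9 of the 10, 12 of the 20 and 8 of the 20, beside 71.9% of all protein-coding genes. The induced Pol II list was the shorter, with 50665 regions over 56.7 Mb, against 57247 over 70.9 Mb uninduced. The induced H3K27ac list held 79987 regions and the uninduced one 78005. In the opposite direction, 5451 of the induced Pol II regions (10.8%) overlapped no uninduced one. With the Pol II lists set to equal length, the uninduced regions without an induced partner numbered 12540 in place of 17409. The part of depth was not tested.

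Few of the regions listed only without induction lay on gene starts, and the 4 promoters below are those under the strongest that overlapped a listed promoter. They run from 250 bases before to 50 bases after the start, 5′ to 3′ on the gene's strand, from RefSeq on GRCh38.p14, and capitals mark the bases that the Pol II region covered. PRR9 (chr1:153217334-153217633, plus strand) is a gene of the epidermal differentiation complex. TTC7B (chr14:90816381-90816680, minus strand) encodes a tetratricopeptide repeat protein. GRIK4 (chr11:120511498-120511797, plus strand) encodes a kainate receptor subunit. TRPM6 (chr9:74887298-74887597, minus strand) encodes a magnesium channel of the intestine and kidney.

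PRR9: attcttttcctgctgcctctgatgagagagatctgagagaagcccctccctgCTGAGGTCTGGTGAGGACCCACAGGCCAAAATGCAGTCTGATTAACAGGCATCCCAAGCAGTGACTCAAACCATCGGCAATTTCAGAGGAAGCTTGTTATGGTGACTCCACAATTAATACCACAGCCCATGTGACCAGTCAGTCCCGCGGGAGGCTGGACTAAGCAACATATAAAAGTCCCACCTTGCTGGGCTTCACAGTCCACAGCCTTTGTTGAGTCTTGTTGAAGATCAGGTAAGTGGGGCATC

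TTC7B: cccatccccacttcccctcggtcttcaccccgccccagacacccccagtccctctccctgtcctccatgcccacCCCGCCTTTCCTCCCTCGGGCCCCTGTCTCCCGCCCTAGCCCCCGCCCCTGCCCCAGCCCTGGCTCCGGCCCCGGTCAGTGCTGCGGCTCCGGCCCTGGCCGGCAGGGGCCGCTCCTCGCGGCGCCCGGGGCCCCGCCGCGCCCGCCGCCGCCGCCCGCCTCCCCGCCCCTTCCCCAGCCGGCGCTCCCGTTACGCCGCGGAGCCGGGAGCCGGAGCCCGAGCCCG

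GRIK4: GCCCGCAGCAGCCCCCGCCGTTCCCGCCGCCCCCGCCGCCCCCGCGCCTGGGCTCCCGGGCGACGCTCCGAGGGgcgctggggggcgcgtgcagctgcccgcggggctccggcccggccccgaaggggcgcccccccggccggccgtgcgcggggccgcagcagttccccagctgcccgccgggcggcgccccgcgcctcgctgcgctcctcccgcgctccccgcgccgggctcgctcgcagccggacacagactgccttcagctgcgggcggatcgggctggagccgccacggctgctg

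TRPM6: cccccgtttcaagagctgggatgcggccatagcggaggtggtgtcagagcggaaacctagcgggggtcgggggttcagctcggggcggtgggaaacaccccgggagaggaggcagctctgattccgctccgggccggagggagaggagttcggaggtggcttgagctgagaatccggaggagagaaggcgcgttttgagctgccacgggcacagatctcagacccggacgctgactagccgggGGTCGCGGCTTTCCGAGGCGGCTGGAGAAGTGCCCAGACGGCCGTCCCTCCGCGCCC

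At PRR9 the Pol II region reached over 248 of the 300 bases, and at TTC7B over 226. At GRIK4 it touched the upstream 74 bases alone, and at TRPM6 the downstream 57. The letters CTTTGAT, the core of the sites that TCF proteins bind, were then searched on both strands in every promoter of this length. They were in 2 of the 203 promoters overlapped by a region listed only without induction (0.985%, 0.271 to 3.52%), against 172 of 13071 overlapped by a shared region (1.32%) and 440 of all 22131 promoters (1.99%). The 2 promoters were those of SNORC (chr2:232869316-232869615) and UPK1A (chr19:35666267-35666566), both on the plus strand. They are shown with the letters, or their reverse complement, in capitals, which begin 110 bases before the start in SNORC and 166 bases before it in UPK1A. The Pol II region covered the match in SNORC. In UPK1A it covered the downstream 108 bases of the promoter and not the match. Both Pol II regions were weak, with a −log10 q of 2.67 in SNORC and 2.17 in UPK1A, and lay on H3K27ac of neither list.

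SNORC: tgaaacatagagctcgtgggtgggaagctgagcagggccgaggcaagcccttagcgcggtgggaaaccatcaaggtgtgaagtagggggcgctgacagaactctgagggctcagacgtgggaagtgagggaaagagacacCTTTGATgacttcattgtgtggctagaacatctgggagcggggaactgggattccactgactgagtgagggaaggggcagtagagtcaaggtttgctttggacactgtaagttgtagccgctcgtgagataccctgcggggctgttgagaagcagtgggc

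UPK1A: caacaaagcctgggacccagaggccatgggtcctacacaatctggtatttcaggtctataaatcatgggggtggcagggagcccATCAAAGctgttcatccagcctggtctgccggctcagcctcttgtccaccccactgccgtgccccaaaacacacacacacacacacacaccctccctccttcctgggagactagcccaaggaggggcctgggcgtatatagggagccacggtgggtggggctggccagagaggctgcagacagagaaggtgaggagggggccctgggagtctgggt

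A match is a run of letters and does not show a bound factor, and promoters are a small part of the ground these regions cover.

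The regions listed only without induction were mostly weak and narrow. Their median −log10 q, the authors' measure of confidence per region, was 3.76 (quartiles 2.67 to 5.14, highest 57.6), against 18.3 for the 38141 shared regions under the same width. Their median fold enrichment was 3.09 (lowest 1.45, highest 9.55), against 6.02 for shared regions. Their median width was 389 bp, against 1027 bp, and 88.6% held 1 summit, against 57.7%. Of uninduced regions under 5000 bp, 31.3% had no induced partner. That share was 76.9% below a −log10 q of 2, and then 72.0% from 2 to 3, 61.3% from 3 to 5, 35.2% from 5 to 10, 10.9% from 10 to 20 and 0.276% at 20 or more. The strongest class held 51 such regions of 18458. The 5451 regions listed only after induction had a median −log10 q of 3.05 and a median width of 318 bp, so they were weak and narrow as well.

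**Figure D1:**
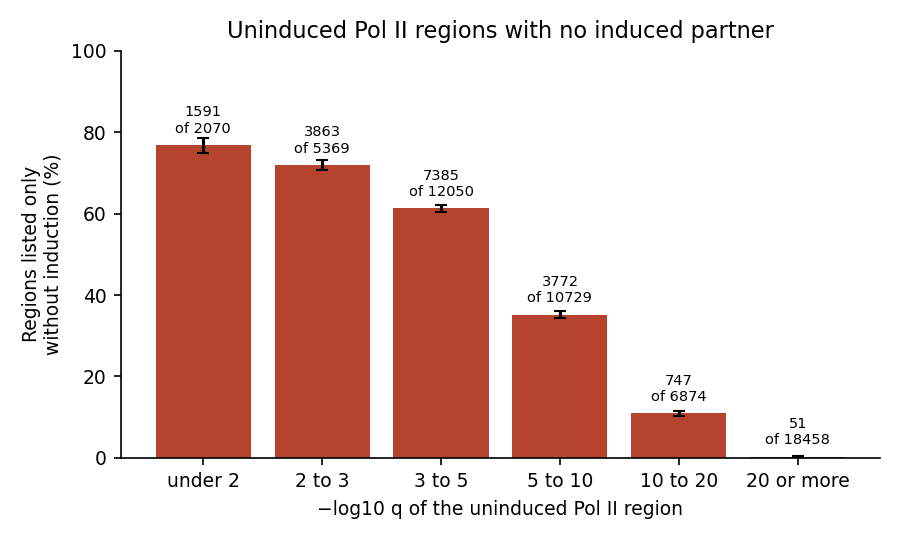
Bars show the percent of uninduced Pol II regions under 5000 bp with no overlapping induced Pol II region, by the −log10 q of the region; error bars are Wilson 95% intervals and the counts stand above. The share was 76.9% in the weakest class and 0.276% in the strongest.

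Many lay close to Pol II of the induced list. The median gap to the nearest induced region was 1.80 kb, and 23.6% were within 0.5 kb, 37.9% within 1 kb, 73.7% within 10 kb and 94.8% within 100 kb of one. The farthest was 2.32 Mb away. At the border of the rule, 82 regions lay at most 10 bp from an induced region, with a median fold of 3.03, while 66 shared regions overlapped one by at most 10 bp, with a median fold of 2.89. No region of 5000 bp or more lacked an induced partner, and the widest region listed only without induction was 3640 bp with a fold of 3.56. Across chromosomes the share of uninduced regions with no induced partner ran between 23.0% on X (20.7 to 25.5%) and 35.1% on chromosome 18 (32.2 to 38.2%).

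By gene context, 10.1% of the regions (1766) lay within 1 kb of an end of a protein-coding gene, 46.0% (8016) elsewhere inside genes and 43.8% (7627) between genes. Shared regions divided differently, with 35.9% at gene ends, 29.9% inside and 34.2% between genes. Regions listed only after induction divided much like those listed only without it, at 11.6%, 46.5% and 41.9%. The strand was known for 15811 of the 19970 genes, which separates the start, where Pol II is loaded, from the 3′ end, where it is released. Only 2.91% of the regions listed only without induction (507) lay within 1 kb of a start, against 24.6% of shared regions and 2.99% of those listed only after induction. At 3′ ends the shares were 6.11% (1063), 8.02% for shared regions and 7.08% for those listed only after induction. These shares are of all regions, and starts and 3′ ends of genes without a known strand are not in them. Every listed promoter of a gene counted as a start, so some starts lie inside genes.

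Of shared regions with a −log10 q of 20 or more, 46.2% were at a start, against 5.88% (3 of 51) of those listed only without induction. Among regions between 3 and 5, the largest class of those listed only without induction, 2.92% of them and 3.32% of shared regions were at a start, and the intervals of 2.56 to 3.33% and 2.85 to 3.88% overlap. Between 5 and 10 the shares were 2.86% and 4.43%. At 3′ ends the share was lower at matched strength, with 6.77% against 10.6% between 3 and 5, 4.56% against 10.7% between 5 and 10, and 2.41% against 11.5% between 10 and 20. The counting intervals do not overlap in those 3 classes, and with 1 list per condition the difference has no test. Regions listed only after induction, classed by their own −log10 q, were at 3′ ends in 7.49%, 4.16% and 8.33% (2 of 24) of cases.

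Along the body of genes of 10 kb or longer, the regions listed only without induction leaned to the far end. With each gene cut into 5 equal parts from start to end, 19.6%, 15.6%, 14.9%, 17.6% and 32.2% of 6971 lay in each, against 41.0%, 12.6%, 12.3%, 12.4% and 21.8% of 14068 shared regions. Of regions listed only after induction, 33.8% lay in the last of the 5 parts. Between genes, those within 10 kb of a gene lay beyond its 3′ end in 63.3% of cases (2118 of 3347, 61.6 to 64.9%), against 61.1% for shared regions. Beyond 50 kb the share past the 3′ end was 48.9%, against 47.8%. Of the intergenic ones, 1741 of 7627 (22.8%, 21.9 to 23.8%) overlapped a long non-coding RNA gene, against 3521 of 13045 shared ones (26.2 to 27.8%).

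H3K27ac was found under a minority of these regions, though under 63.7% (induced list) and 65.2% (uninduced list) of those with a −log10 q of at least 5, and mostly in both lists where it was found. Of the 17409, 41.9% (7295) overlapped induced H3K27ac and 42.9% (7460) uninduced H3K27ac, with 40.8% (7108) on both and 56.1% (9762) on neither. Of shared Pol II regions, 70.5% overlapped induced and 70.7% uninduced H3K27ac, and of regions listed only after induction 31.9% and 30.8%. Induced H3K27ac alone was under 1.07% (187) of the regions listed only without induction and uninduced H3K27ac alone under 2.02% (352). Regions listed only after induction showed the reverse order, with 1.96% (107) on induced H3K27ac alone and 0.844% (46) on uninduced H3K27ac alone.

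Within the middle classes of strength the order was the other way. Between a −log10 q of 10 and 20, induced H3K27ac was under 86.9% of the regions listed only without induction, against 67.0% of shared regions, and uninduced H3K27ac under 88.6%, against 67.4%. Between 5 and 10 the shares were 58.7% against 46.5% in the induced list and 60.1% against 46.8% in the uninduced one. Below 5 they lay within 4 percentage points of each other in both lists, at 34.9% against 32.2% (induced) and 35.7% against 32.3% (uninduced) in the class from 3 to 5. Most of the regions listed only without induction were in these weak classes. By context, 25.5% of those at gene ends, 41.9% of those inside genes and 45.7% of those between genes were on induced H3K27ac, against 77.5%, 64.6% and 68.4% of shared regions. At starts the share on induced H3K27ac was 59.8%, against 96.3%, and at 3′ ends 12.2%, against 25.5%. Regions listed only after induction had 25.1% at gene ends, 31.6% inside and 34.2% between genes, with 63.2% at starts and 12.7% at 3′ ends. The shares by context and place were not matched for strength. Of 9366 shared regions at starts 8506 had a −log10 q of 20 or more, against 3 of 507 listed only without induction.

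**Figure D2:**
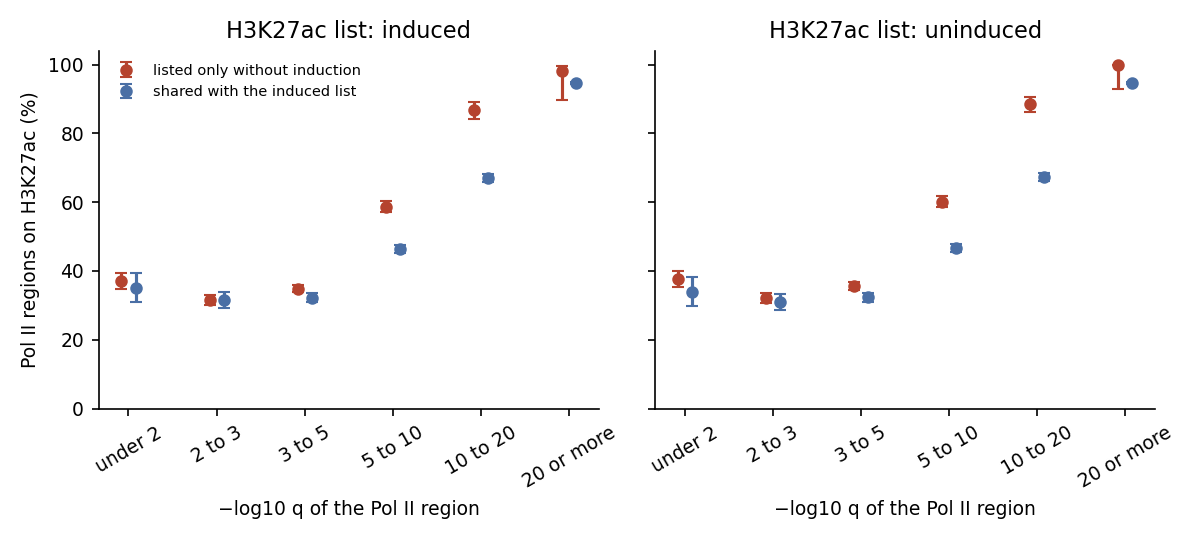
Percent of uninduced Pol II regions that overlapped an H3K27ac region of the induced list (left) or the uninduced list (right), by the −log10 q of the Pol II region, for regions listed only without induction and regions shared with the induced list; bars are Wilson 95% intervals. From a −log10 q of 5 to 20 the regions listed only without induction lie above the shared ones, at 58.7% against 46.5% and 86.9% against 67.0% in the induced list.

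Where the mark was in both lists, its fold enrichment was the lower in the induced list at a larger share of these regions than of shared ones. That was so at 55.5% (54.3 to 56.6%) of the 7108 regions on both, against 34.8% of 26592 shared Pol II regions, 22.9% of regions listed only after induction and 41.7% of all 66669 H3K27ac regions in both lists. The median H3K27ac fold was 14.1 in the induced list and 16.3 in the uninduced list under the regions listed only without induction, against 21.4 and 19.5 under shared regions. The share with the lower induced fold was 46.9% in the weakest class and then 48.5%, 53.6%, 58.7%, 69.5% and 88.0%, class by class up to a −log10 q of 20 or more. Shared regions stayed between 24.4% and 38.1% in the same classes. Several Pol II regions can lie on 1 wide H3K27ac region, so each H3K27ac region was also counted once. The 4677 that held only Pol II listed without induction had the lower fold in the induced list in 61.2% (59.8 to 62.6%) of the 4431 found in both lists. For the 2023 that held other Pol II regions as well it was 37.7%, for the 24327 with other Pol II alone 35.0%, and for the 46978 with no Pol II 43.9%. The H3K27ac fold is the highest of the authors' values over the whole H3K27ac region, not the value under the Pol II region alone. The lists' depth, input and background enter it. Their part in these shares was not tested.

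**Figure D3:**
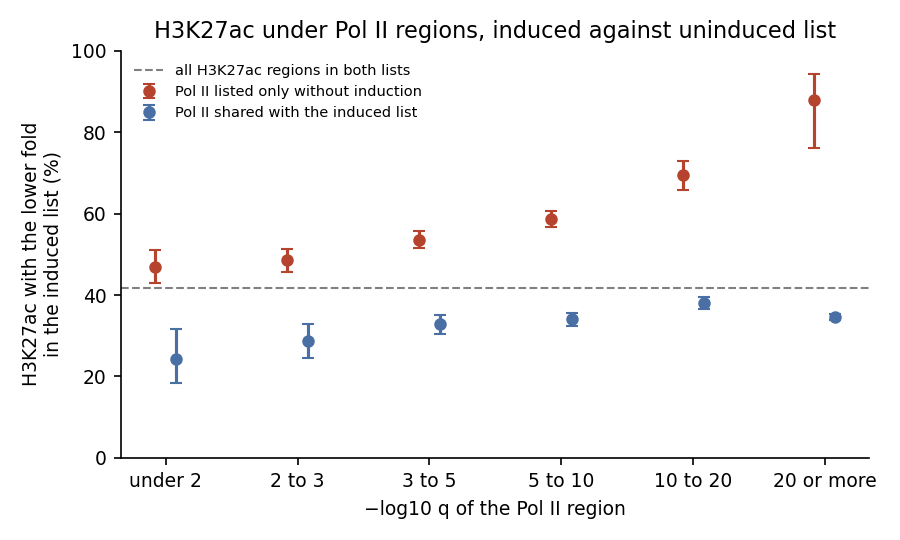
Percent of Pol II regions on H3K27ac of both lists at which the H3K27ac fold enrichment was lower in the induced list, by the −log10 q of the Pol II region, with Wilson 95% intervals; the dashed line marks all H3K27ac regions in both lists (41.7%). Regions listed only without induction lie above the line in every class, from 46.9% to 88.0%, and shared regions below it.

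Few lay on H3K27ac that was itself missing from the induced list. Of the 7460 regions on uninduced H3K27ac, 4.72% (352, 4.26 to 5.22%) had no induced H3K27ac, against 1.32% of shared regions. All uninduced H3K27ac regions lacked an induced partner in 14.5% of cases, and those with no Pol II in 22.1%. In the classes of strength from 2 to 20 the shares were 5.55%, 5.53%, 3.93% and 2.57%, against 3.43%, 4.64%, 3.57% and 2.13% of shared regions, so at equal strength the groups lay closer.

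The 10 strongest regions listed only without induction were mostly distal: 8 were intergenic, and all 10 lay on H3K27ac of both lists. The strongest was chr4:3835020-3838210, 66.5 kb from ADRA2C, the alpha-2C adrenergic receptor gene, with a Pol II −log10 q of 57.6 and fold of 7.15. Its H3K27ac fold was 6.66 in the induced list and 17.2 in the uninduced one, and an induced Pol II region of fold 5.85 lay 6.70 kb away. Inside BABAM2, a subunit gene of a DNA repair complex with BRCA1, chr2:28080949-28081628 had a Pol II fold of 8.75, with H3K27ac folds of 9.50 induced and 18.5 uninduced and the nearest induced Pol II 143.4 kb away. The highest Pol II fold of any was 9.55, at chr2:204407544-204408065, with no protein-coding gene within 100 kb and H3K27ac folds of 12.4 induced and 15.8 uninduced.

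Further down, chr3:14290562-14291722 lay 89.4 kb from LSM3, a gene of the spliceosomal U6 particle, with H3K27ac folds of 15.2 in the induced and 29.6 in the uninduced list. Near SERP2, 92.1 kb away, chr13:44280442-44281538 had 18.2 induced and 26.1 uninduced, and chr9:135288968-135289874, with no gene within 100 kb, had 10.4 induced and 23.4 uninduced. Each of these had the lower H3K27ac fold after induction. Close to PFKFB3, a regulator of glycolysis, chr10:6140373-6140880 lay 4.04 kb off and had 6.12 induced and 9.42 uninduced. At 31.4 kb from PPM1H, a phosphatase gene, chr12:62966544-62967002 had 6.12 induced and 7.90 uninduced. The induced H3K27ac fold was the lower at 9 of the 10. The exception, chr20:62523691-62524205, 47.7 kb from the transcription factor gene GATA5, had 5.75 induced and 4.13 uninduced. Induced Pol II lay 0.195 kb from the region near SERP2 (fold 3.63) and 3.33 kb from that near PFKFB3 (fold 39.3). It lay 3.97 kb from the LSM3 region, 6.34 kb from the chromosome 9 region and 30.9 kb from the PPM1H region. From the GATA5 region it was 31.7 kb away, and from chr2:204407544-204408065 45.6 kb.

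At gene ends the strongest was chr1:153217386-153217875 on the start of PRR9, with a Pol II fold of 9.09, H3K27ac folds of 7.30 induced and 11.4 uninduced, and the nearest induced Pol II region 293.1 kb away. The region on the TTC7B start, chr14:90816095-90816606, had a Pol II fold of 7.62 and H3K27ac folds of 6.46 induced and 8.84 uninduced. At the GRIK4 start, chr11:120511127-120511571 had a Pol II fold of 7.24, with 11.1 induced and 21.0 uninduced. Beside MYBL1, a MYB family transcription factor gene, chr8:66560695-66561236 had 7.39, with 20.6 induced and 23.2 uninduced. All 4 had H3K27ac in both lists with the lower fold after induction. The next lay at an end of PCP4, a gene for a calmodulin-binding protein, and that end was not classed as a start or a 3′ end. This region was also the strongest on uninduced H3K27ac alone: chr21:39867230-39867722 had a Pol II fold of 6.98 and an uninduced H3K27ac fold of 6.49.

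The other strongest regions on uninduced H3K27ac alone were near CHN1 (9.81 kb, a Rac GTPase-activating protein), TLNRD1 (2.38 kb, an actin-bundling protein), inside CFAP92 and 34.2 kb from HELT. Their uninduced H3K27ac folds were 9.54 at CHN1, 8.48 at TLNRD1, 3.45 at CFAP92 and 4.03 at HELT. The CFAP92 region lay within 1 kb of a listed start. Induced Pol II lay 0.918 kb from the TLNRD1 region, 9.24 kb from CFAP92's, 156.9 kb from HELT's and 215.5 kb from CHN1's. The strongest on H3K27ac of neither list reached a −log10 q of 17.1, inside TRIM13, a ubiquitin ligase gene, and had induced Pol II 0.239 kb away. Those following were near EIF5A2 (16.2), at chr5:7271311-7273545 (16.2), inside ACSS2 (15.2) and at the 3′ end of PBXIP1 (14.7). Of these 5, 3 had an induced Pol II region within 1 kb, at 0.239, 0.434 and 0.909 kb.

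Genes often held several. Of 19970 protein-coding genes, 5106 (25.6%) held at least 1 and 2226 (11.1%) at least 2, and of the 14367 genes with any uninduced Pol II region the 5106 were 35.5%. At least 5 were held by 288 genes and at least 10 by 19. For regions listed only after induction the counts were 2361 genes with at least 1, 543 with at least 2 and 25 with at least 5. A gene was overlapped by 52.3% of the regions (9107), and 36.8% (6410) lay in a gene with another. Long genes held them more often: 17.9% of genes with Pol II up to 10 kb held at least 1, then 36.5% from 10 to 30 kb, 38.0% from 30 to 100 kb and 49.2% above 100 kb. The median length was 42.8 kb for genes with at least 1 and 161.8 kb for those with at least 10, against 30.8 kb for all genes with uninduced Pol II. Since length and Pol II coverage set how many regions a gene can hold, the ranks below describe the genes and test nothing.

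CEMIP, which encodes a protein that binds and breaks down hyaluronan, held the most. The gene lies at chr15:80779370-80951771 on the plus strand and carried 31 regions listed only without induction, 16 shared ones of any width and 8 listed only after induction. Pol II regions covered 9.08% of it in the induced list and 19.1% in the uninduced list, and H3K27ac regions 30.9% and 37.8%. Its start kept strong Pol II in both lists, with a fold of 43.1 induced (chr15:80778824-80780304) and 54.8 uninduced (chr15:80777977-80780464). The 31 were weak, with a median −log10 q of 3.76 and a highest fold of 4.12. The gene's far end overlaps MESD, and reads there cannot be given to either gene.

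Most of the CEMIP regions sat in the second part of the gene. A run of 14 with no other Pol II region of either list between them spanned chr15:80907924-80930446, 22.5 kb, and none of the 14 lay on H3K27ac in either list, although the induced H3K27ac list had 2 regions between them, with folds of 3.55 and 3.54. Their −log10 q values ran between 2.17 and 6.88. In the whole gene, 6 of the 31 lay on induced H3K27ac and 10 on uninduced H3K27ac. The 6 were all in the first part of the gene, and of the 4 on the uninduced mark alone a pair lay at its far end. The induced Pol II list had 25 regions in CEMIP, among them chr15:80855851-80858125 with a fold of 5.43, where the uninduced list had chr15:80856341-80858342 with a fold of 5.05.

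**Figure D4:**
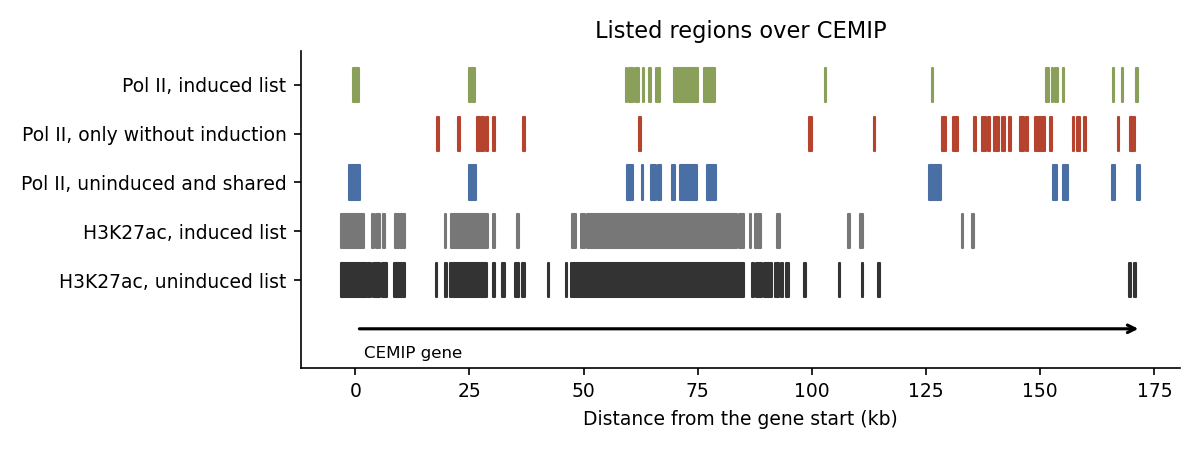
Listed regions over CEMIP by distance from the gene start in kb, with the induced Pol II list on top, then uninduced Pol II regions listed only without induction, uninduced Pol II regions shared with the induced list, and H3K27ac in the induced and uninduced lists; the arrow is the gene. Of the 31 regions listed only without induction, a run of 14 over 22.5 kb in the second part of the gene overlaps no H3K27ac region of either list, although 2 induced H3K27ac regions lie between them.

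PRSS23, a secreted serine protease gene (chr11:86791071-86952910), came next with 20, beside 5 shared and 1 listed only after induction. The first 8 of them, up to chr11:86818613-86819029, were all on H3K27ac of both lists, and none of the later 12 was on H3K27ac in either. The gene overlaps FZD4, a Wnt receptor gene. Of the 20, the last 4 also lay in FZD4, and reads there cannot be given to either gene. Pol II covered 7.23% of PRSS23 in the induced list and 13.7% in the uninduced one. Its strong shared region had a Pol II fold of 28.7 in the induced list (chr11:86798494-86802174) and 27.6 in the uninduced one (chr11:86798569-86803093), and the 20 lay around it and further on, each with a fold of 3.36 or less.

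CEP112, a centrosomal protein gene on the minus strand (chr17:65635537-66192133), held 18, beside 14 shared and 0 listed only after induction. All 18 lay towards its 3′ end, over a span of 184.4 kb, and 17 were on H3K27ac of both lists. The 3′ end of CEP112 lies 73.9 kb from AXIN2, the classic negative feedback target of Wnt signalling. The strongest, chr17:65820140-65820542, had a Pol II fold of 5.11, and the nearest induced region was 34.6 kb away. Pol II covered 1.55% of CEP112 in the induced list and 4.36% in the uninduced one.

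Among the other genes with most, H3K27ac lay under all of the regions in some and under none in others. ANGPT1, the TIE2 ligand angiopoietin 1, had 15 of 15 on the mark in both lists, and RUNX2, a Runt family transcription factor, 11 of 11. At the other extreme ZNF254, a zinc finger gene, had 0 of 12, TAPBPL, a tapasin-related chaperone gene, 0 of 10, and SPDYA, an activator of cyclin-dependent kinases, 0 of 10. FAT1, an atypical cadherin gene, held 11 with only 1 shared region, and 6 of its 11 were on the mark. Between these lay the signalling adaptor gene BCAR3 with 15, of which 7 were on induced and 8 on uninduced H3K27ac, and the interleukin 12 receptor gene IL12RB2 with 13, of which 6 and 7 were. The aminopeptidase gene AOPEP held 13 with 9 on the mark in each list, TTC7A held 11 with 4 on the induced and 5 on the uninduced mark, and the dynein-2 chain gene DYNC2I2 held 11 with 1 and 0. RANBP2, a nucleoporin gene, held 13, but its model in the gene table spans 1122.8 kb and overlaps 6 other protein-coding genes. AOPEP overlaps FANCC, TTC7A overlaps MCFD2, RUNX2 overlaps SUPT3H and SPDYA overlaps TRMT61B. DYNC2I2 overlaps SET and SPTAN1, and TAPBPL overlaps CD27 and VAMP1. Of all regions listed only without induction, 517 lay in several genes and counted for each. AHCY, with 10 and fewer per kb, was the first outside the list.

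**Figure D5:**
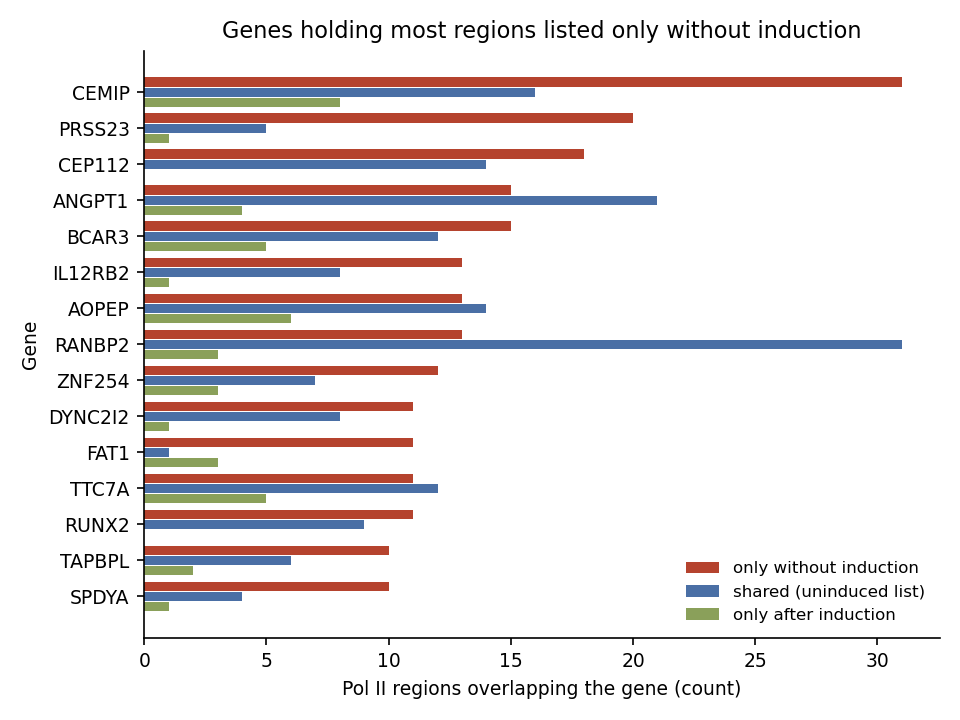
Pol II regions overlapping each of the 15 protein-coding genes with most regions listed only without induction, as counts of those listed only without induction, uninduced regions of any width shared with the induced list and regions listed only after induction. CEMIP leads with 31, 16 and 8, and in RANBP2 the shared regions are the most at 31.

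Per length the densest were small genes. VAMP1, a synaptobrevin gene of 8.44 kb inside TAPBPL's span, held 6, or 7.11 per 10 kb. PDCD5 had 4 in 6.26 kb, NCDN 5 in 8.98 kb, TAF11, a TFIID subunit gene, 5 in 10.6 kb, C11orf24 5 in 10.6 kb and NUDCD2 6 in 13.6 kb. NQO1, a quinone reductase gene of 17.2 kb, held 8, of which 6 were on H3K27ac in both lists. Pol II covered 39.3% of NQO1 in the induced list and 64.8% in the uninduced one, against 28.4% and 65.3% of TAPBPL and 14.5% and 47.6% of PDCD5. LOC124902461 and ZNF696 held 4 each. TAF11 overlaps BLTP3A, NUDCD2 overlaps CCNG1 and LOC124902461 overlaps ZNF503, so their regions may count for both genes.

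Runs shorter than that of CEMIP were found elsewhere, and most were pairs. Regions up to 10 kb apart with no other Pol II region of either list between them were joined. This gave 2866 runs of at least 2, which held 39.7% of the regions, 799 of at least 3 and 80 of at least 5. No run count of other Pol II regions stands beside these. After CEMIP the longest had 8, over 11.5 kb at KDM2B and RNF34. Runs of 7 lay in LRRC57, IL12RB2, CCDC66 and PDSS1, at POLR1C and XPO5, and in an intergenic stretch at chr11:76328933-76346841. The runs in LRRC57, CCDC66 and POLR1C with XPO5 had 0 regions on H3K27ac in either list, while that of IL12RB2 had 4 on induced and 5 on uninduced H3K27ac. The rule for runs was chosen after their values were seen.

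Of the Wnt and TCF target genes, 24 of 25 symbols matched the gene table and 14 held at least 1 region listed only without induction, which is 58.3%, beside 25.6% of all protein-coding genes. Of the 23 with uninduced Pol II it was 60.9% (40.8 to 77.8%), beside 35.5%, and 9 held at least 2. By length, 6 of 8 above 100 kb held one, beside 40.8% of all genes of that length and 49.2% of those with uninduced Pol II. From 30 to 100 kb it was 5 of 5, beside 31.3% and 38.0%. From 10 to 30 kb it was 1 of 3, beside 1482 of all 5490 and 36.5% of those with uninduced Pol II. Up to 10 kb it was 2 of 8, beside 9.55% and 17.9%. The list's 50 regions had a median −log10 q of 3.92, between 1.37 and 8.93. Regions listed only after induction numbered 16 in 5 of the genes, with 6 in TCF7, 5 in RNF43, 2 in ETS2, 2 in TCF7L2 and 1 in TNFRSF19, so TCF7 held more of these than of the 4 listed only without induction. The list was drawn up with results of these data known, so the counts support nothing by themselves. At a −log10 q of at least 5, 7 of the 24 held one, beside 9.05% of all protein-coding genes.

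Several of these genes encode negative feedback regulators of the pathway. RNF43, a ubiquitin ligase that removes Wnt receptors, held 8, and its relative ZNRF3 held 5. Pol II covered 35.6% of RNF43 in the induced list and 49.8% in the uninduced one, and 5.33% and 11.3% of ZNRF3. NKD1, an inhibitor that acts on Dishevelled, held 5, and Pol II covered 2.81% of it induced and 13.5% uninduced. The 5 lay at chr16:50563777-50564043 and, towards the far end of the gene, between 50635194 and 50647969, with folds of 2.87 to 3.77, and none was on H3K27ac in either list. APCDD1, a Wnt inhibitor at the membrane, held 4, of which 2 were on the mark with H3K27ac folds of 17.3 and 5.25 in the induced list, against 24.2 and 12.8 in the uninduced one. AXIN2, the scaffold of the β-catenin destruction complex, held 3, the strongest at chr17:65546739-65547941 with a Pol II fold of 4.36. Pol II covered 68.7% of AXIN2 in the induced list and 92.0% in the uninduced one. NOTUM, which inactivates Wnt proteins, held 1.

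Others encode receptors and transcription factors. EPHB2, the ephrin receptor of crypt base cells, held 5, the TNF receptor family member TNFRSF19 held 4, and CD44 and the stem cell receptor LGR5 held 1 each. ETS2 held 7, TCF7, the gene of the related factor TCF1, held 4, SP5 held 1 and SMOC2, a secreted matrix protein gene, held 1. The LGR5 region, chr12:71455164-71455450, had a Pol II fold of 3.49 and H3K27ac folds of 4.87 induced and 3.29 uninduced. None was held by MYC, ASCL2, TCF7L2, CCND1, SOX9, LEF1, EPHB3, BMP4, DKK1 or ADRA2C. Several of these had wide Pol II in both lists, which covered 63.8% of MYC induced and 68.6% uninduced, 100.0% of ASCL2 in each, 98.0% and 100.0% of SOX9 and 97.8% and 98.4% of CCND1. Of ADRA2C it covered 3.97% induced and 30.7% uninduced. It covered slightly more of EPHB3 and TCF7L2 induced, at 17.3% against 16.2% and 2.74% against 2.21%. DKK1 had no uninduced Pol II region, so it could hold none.

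The H3K27ac regions that the Wnt genes' regions overlapped mostly had the higher fold after induction. Each fold is the highest of the whole H3K27ac region, so how each list divides the mark enters it. In RNF43 the same induced fold of 32.2 stood against 16.6 and 29.2 uninduced. The Wnt genes' regions were not compared by nearest summit on their own. Of the 36 among the 50 that lay on H3K27ac of both lists, 8 had the lower fold in the induced list, beside 55.5% of all regions listed only without induction. Those in RNF43, ETS2 and AXIN2 all had the higher H3K27ac fold after induction, such as 35.5 induced and 29.3 uninduced over the AXIN2 regions. Several share 1 wide H3K27ac region, so the 36 are not separate readings. The lower folds were in APCDD1, EPHB2, TCF7, TNFRSF19 and ZNRF3, for example 5.26 induced and 11.8 uninduced at chr5:134140399-134141160 in TCF7.

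The other gene groups stand beside the same background of 35.5% of genes with uninduced Pol II. The guanylate cyclase C pathway had 1 of 3 such genes, CFTR, with 2 regions, and GUCA2A held none. GUCA2B and GUCY2C had no uninduced Pol II region, so they could hold none. Colonocyte differentiation had 3 of 11, led by VIL1 with 6. Immediate early genes had 3 of 20, cell cycle and growth genes 5 of 20, ATF4 stress genes 6 of 19 (TRIB3 with 5) and housekeeping genes 7 of 20 (GUSB with 3). Immune, stromal and endothelial genes had 3 of 12 (ACTA2 with 5), liver, muscle and neuron genes 3 of 8, and colon epithelium genes 3 of 9. With 3 to 20 genes in each, intervals were wide, as in 35.0% (18.1 to 56.7%) of the housekeeping genes.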

How the data were processed

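Pol II and H3K27ac peak lists of induced and uninduced DLD1 cells were used, 1 list for the 2 samples of each group. Whether calling used pooled reads is not given in the sources used. Reads were 75 bp, 40 to 55M per sample, per the labels' protocols. The submitters' processing notes name, without role or order, MACS2 2.1.1.20160309, BWA 0.7.17-r1188, deepTools 3.5.0 and SAMtools 1.10, and builds hg19 and hg38. The build is GRCh38, as regions of chromosome 17 run up to 83228308. How the caller was set is likewise not given. Each summit of the authors' deposited lists has a fold enrichment, which is a ratio to local background, a −log10 q-value of 1.30 or more and a score made from it. These values depend on depth and input, which fold comparisons between lists carry with them.

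Rows of 1 region with several summits were collapsed to the region with its highest −log10 q and fold. Only the 22 autosomes and X were kept, which dropped at most 0.603% of summits. Coordinates are 1-based, and an overlap is any shared base (1 bp or more). bedtools 2.31.1 gave the same 17409 regions. Protein-coding genes, 19970 of them, came from a RefSeq table (GRCh38.p14), with strand for the 15811 that the promoter table holds. The overlap and distance steps were tested on simulated regions. Intervals of shares are Wilson intervals at 95%, which were not simulated. With 1 list per condition no test was made across regions, genes or lists, and p-values are absent. Columns of per-sample values left unmatched numbered 0.

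The regions and gene lists were chosen with earlier results of these data known. Named were the 10 strongest regions by −log10 q, the 5 strongest at gene ends, on uninduced H3K27ac alone and on neither list, the 15 genes with most regions, the 10 with most per 10 kb among genes with at least 4, up to 4 genes per list and 8 fixed genes (AXIN2, ASCL2, LGR5, MYC, TCF7L2, GUCY2C, GUCA2A, GUCA2B). The further Wnt genes, regions at gene starts, runs, and the H3K27ac fold comparison were added after values were seen. Alternatives varied the overlap, the −log10 q threshold, the gene window, the gene set, list length and width limit.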

Additional observations from a re-analysis of the deposited data

How the results depend on the processing

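No paired analysis was possible because 1 list per condition serves both numbered samples, and for the same reason no sample could be left out. Of 74 alternatives, 25 kept the value and 49 moved it. At a −log10 q of at least 5 the order of the intragenic and intergenic shares turned round, and the share on H3K27ac passed 50% there, over 1 kb from induced Pol II (uninduced list) and within 1 kb of H3K27ac (uninduced list). The number of regions was 17409. It was 10818 when an induced region within 1 kb counted as shared, 9388 with a −log10 q of 5 or more in both lists and 4570 with that threshold in the uninduced list alone. With lists of equal length it was 12540, and with a stricter overlap by covered bases 22716. The share at gene ends was 20.1% with a window of 2 kb, 17.6% with all genes of the table, 8.32% at a −log10 q of at least 5 and 7.31% for regions over 1 kb from induced Pol II. The intragenic share was 40.9%, 52.2% and 42.4% under the first 3 of these, and the intergenic share 39.0%, 30.2%, 49.3% and 46.2% under the 4. The share on H3K27ac was 49.5% (induced list) and 50.3% (uninduced list) within 1 kb, 39.2% and 40.6% by summit, 39.8% and 41.0% with H3K27ac at a −log10 q of at least 5, 63.7% and 65.2% for Pol II regions at that threshold, and 49.9% and 51.0% over 1 kb from induced Pol II. Genes with at least 2 regions numbered 340 at that threshold and 1270 at that distance. At a −log10 q of at least 5, genes with a region were 7 Wnt, 1 colonocyte, 0 immediate early, 1 cell cycle, 1 ATF4, 1 housekeeping, 1 immune or stromal and 0 liver, muscle or neuron genes, beside 1808 of all genes (9.05%). CEMIP then held 6 regions, PRSS23 4, CEP112 7 and RNF43 0. The share with the lower induced H3K27ac fold, an alternative set chosen after seeing the data, was 61.2% over 1 kb from induced Pol II, 61.6% at a −log10 q of at least 5, 53.8% with each H3K27ac region once and 62.0% by the nearest H3K27ac summit. The cause was not tested. Region values carry no replicate error, and depth per list is unknown beyond the stated range of reads.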
